A study of Homo sapiens with 15 samples.

Results

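Decitabine plus PXD101 was compared with no treatment in CP70, a human ovarian cancer cell line that resists cisplatin and was derived from the sensitive line A2780. The 6 arrays of this comparison were those whose titles name CP70 with both drugs (3 arrays, here the combination arrays) and CP70 with no treatment (3 arrays), out of 15 in the series, and all 19775 genes with a named probe set were tested. In the combination arm, cells received 0.1 µM decitabine for 48 h, replaced after 24 h, and 0.1 µM PXD101 during the last 24 h. Treated cells were collected 96 h after the drugs were taken away. The design text states biological triplicates. The other arms, used here for comparison, were CP70 with decitabine alone (0.1 µM, 48 h), CP70 with PXD101 alone (0.1 µM, 48 h) and untreated A2780, with 3 arrays each. PXD101 was therefore present for 24 h in the combination and for 48 h when given alone, and CP70 is 1 derived line, so that the arrays speak for that line only.

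Decitabine is a cytidine analog that is built into DNA and traps DNA methyltransferases there, so that newly made DNA strands lose methylation at CG dinucleotides. Genes that are silenced by dense CG methylation, such as the cancer-testis antigens that are normally read only in germ cells, are known to be read again after such treatment, and transcripts of endogenous repeats can set off an interferon response. PXD101 (belinostat) inhibits histone deacetylases, which keeps histones acetylated while the drug is present.

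Levels are given as log2 values of the arrays, on which a difference of 1.0 is a change of 2-fold. The lower quartile of all gene values was 4.34 and the median 6.28, and a level below 4.34 lies close to the floor of the scale, so that a fold from there is understated. Untreated CP70 replicate 2 stood apart from the other untreated arrays: it correlated across genes at 0.996 on average with the PXD101 arrays and at 0.984 with untreated replicates 1 and 3. Results against untreated CP70 are therefore given with all 3 controls, and each list and call was also tested without replicate 2 and with replicate 2 as the only control, its spread then taken from the other groups; losses among the genes described stand beside them or in the count of their list. RNA integrity can be read from actin, whose 3' probe set exceeded the 5' one by 0.629 to 0.859 in untreated CP70 and by 0.424 to 0.491 in the combination arrays, which do not overlap. The same difference for GAPDH overlapped, at -0.044 to 0.0193 untreated and -0.0547 to 0.0054 with the combination. The part of RNA quality in the results was not tested. The arrays measure a culture as a whole, so that fewer cells of a kind and less RNA per cell cannot be told apart.

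The cells kept some markers of ovarian carcinoma and lacked others. PAX8, a transcription factor of Müllerian epithelium, was at 7.28 untreated and 7.25 with the combination, and the folate receptor FOLR1 was at 11.35 and 11.68. WT1 (3.68 untreated), MUC16 (4.04), E-cadherin CDH1 (3.71) and SOX17 (3.42) lay below the lower quartile, while the mesenchymal filament VIM was at 14.29 in both groups. Of 11 leukocyte markers, 4 lay below the lower quartile and 11 below the median gene in untreated CP70, and 4 and 9 did so with the combination. PTPRC, which defines leukocytes, was at 3.95 and 3.76. The log2 of the summed levels of these 11 markers was 8.37 to 8.54 untreated and 8.88 to 8.91 with the combination. TYROBP (1.17 ± 0.24) and LAPTM5 (1.13 ± 0.23) rose and CD8A fell (-0.66 ± 0.16). With untreated replicate 2 as the only control LAPTM5 was called, and TYROBP and CD8A were not (limma adjusted p = 0.100 and 0.466); CD8A also lost its call without combination replicate 2 or untreated replicate 1 or 3.

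With the combination 2055 genes changed (10.4%), of which 1221 rose and 834 fell at a Benjamini-Hochberg adjusted p under 0.05 in limma, which is 6.17% and 4.22% of the genes tested. At least 2-fold changes numbered 338 up (1.71%) and 80 down (0.405%), and 33 of the rises and 0 of the falls reached 8-fold. The rises and falls differed in how they stood against the separate untreated arrays. Of the 338 larger rises, 267 were called with each of the 3 sets of controls, and of the 80 larger falls 21 were. Over all genes, 432 rises (2.18%) and 127 falls (0.642%) were called the same way with each set. Without untreated replicate 2 the counts were 2978 up (15.1%) and 1939 down (9.81%), and with it as the only control 572 (2.89%) and 293 (1.48%).

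Untreated replicate 2 was the untreated array nearest to the combination for 58.5% of the rises and 72.4% of the falls. The median difference of the rises was 0.825 against untreated replicate 1, 0.562 against replicate 2 and 0.774 against replicate 3. For the falls it was -0.664, -0.383 and -0.638. The balance of rises to falls also depended on scaling: rises made up 59.4% of the calls on the deposited values and 34.5% after each array was centred on its median (902 up, 1714 down), which moved the median over all genes from -0.0008 to -0.103. The groups described below with rises and no falls kept that split under median centring and under repeated quantile normalization, except that antigen presentation had 1 fall under both and the fibroblast and endothelial markers 1 fall under centring. Leaving out 1 array at a time gave 665 to 2978 rises and 367 to 1939 falls; next to untreated replicate 2, combination replicate 2 (665 and 373), untreated replicate 1 (723 and 390) and untreated replicate 3 (711 and 367) moved both counts most.

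**Figure D1:**
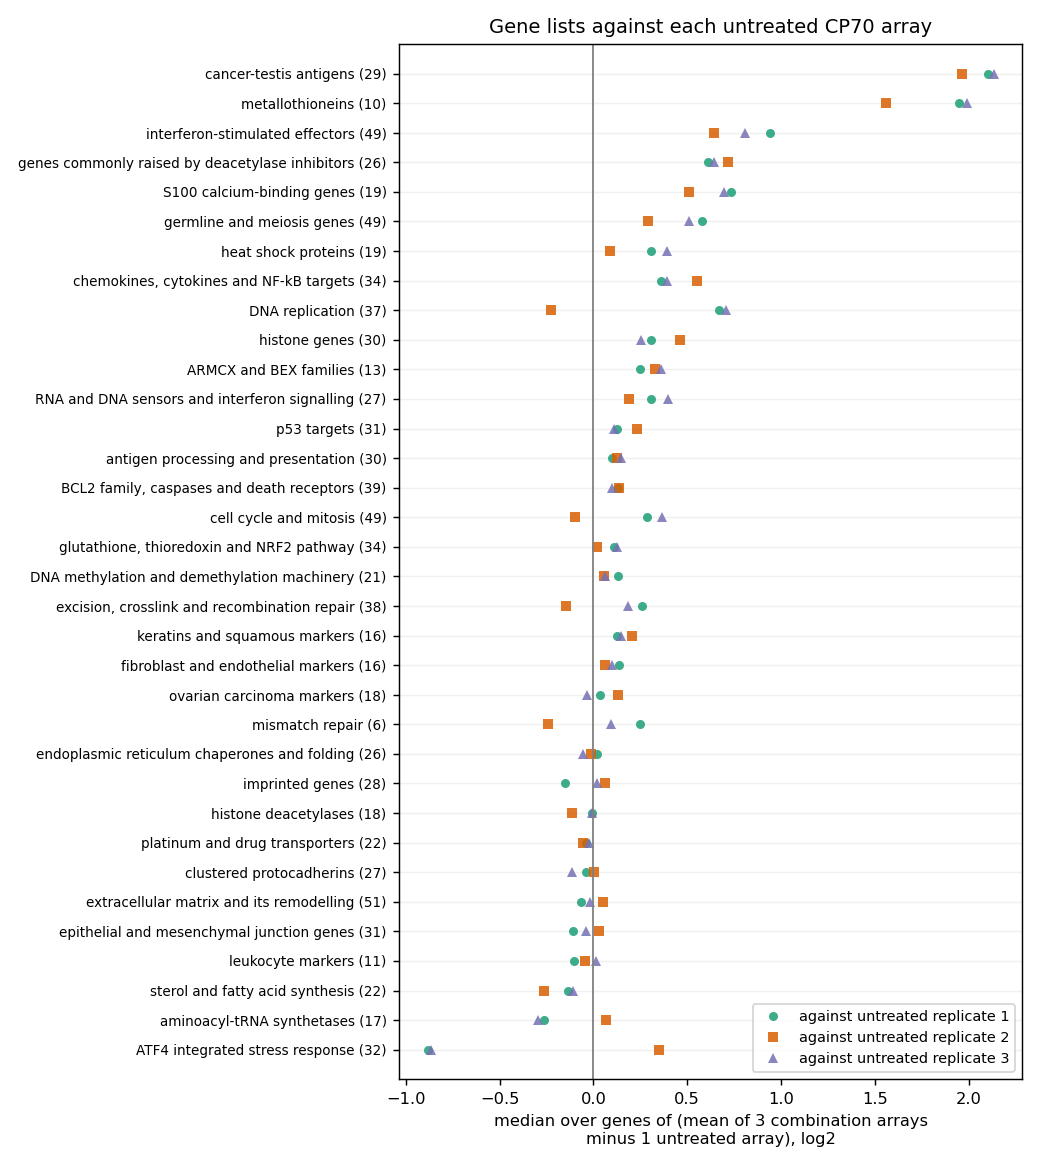
Median over the genes of each of 34 lists (number measured in brackets) of the log2 difference between the mean of the 3 combination arrays and each untreated CP70 array, with 1 symbol per untreated replicate. Cancer-testis antigens, metallothioneins and interferon-stimulated genes lie to the right of 0 against each untreated array, whereas DNA replication (0.669, -0.228, 0.707) and the ATF4 stress response (-0.883, 0.352, -0.865) change side with replicate 2.

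Most of the largest rises were in genes that are normally read in germ cells. The 250 bases upstream of the annotated start of 4 of the 15 largest rises follow, 5' to 3' on the gene's strand from the RefSeq promoters of GRCh38.p14, with CG, the dinucleotide that DNA methyltransferases act on, in capitals. They are the X-linked ARMCX2 (chrX:101659851-101660100, minus strand), the cancer-testis antigen MAGEA6 (chrX:152769690-152769939, minus strand), the germ cell gene DAZL (chr3:16605424-16605673, minus strand) and the peroxidase GPX1 (chr3:49358354-49358603, minus strand).
ARMCX2: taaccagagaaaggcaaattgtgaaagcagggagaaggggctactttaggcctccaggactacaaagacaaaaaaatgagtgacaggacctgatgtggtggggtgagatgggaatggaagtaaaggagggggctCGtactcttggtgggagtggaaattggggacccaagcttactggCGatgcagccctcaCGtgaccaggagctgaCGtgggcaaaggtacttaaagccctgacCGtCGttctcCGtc
MAGEA6: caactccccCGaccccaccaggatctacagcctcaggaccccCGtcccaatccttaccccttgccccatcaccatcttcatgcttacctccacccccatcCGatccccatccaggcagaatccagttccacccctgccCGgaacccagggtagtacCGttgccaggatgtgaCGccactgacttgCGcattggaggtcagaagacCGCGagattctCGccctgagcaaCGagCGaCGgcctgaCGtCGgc
DAZL: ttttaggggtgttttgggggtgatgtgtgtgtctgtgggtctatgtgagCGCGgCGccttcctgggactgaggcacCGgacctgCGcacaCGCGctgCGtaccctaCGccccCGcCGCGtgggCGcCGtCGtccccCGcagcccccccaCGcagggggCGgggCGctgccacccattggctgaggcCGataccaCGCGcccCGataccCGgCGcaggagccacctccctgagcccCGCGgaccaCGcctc
GPX1: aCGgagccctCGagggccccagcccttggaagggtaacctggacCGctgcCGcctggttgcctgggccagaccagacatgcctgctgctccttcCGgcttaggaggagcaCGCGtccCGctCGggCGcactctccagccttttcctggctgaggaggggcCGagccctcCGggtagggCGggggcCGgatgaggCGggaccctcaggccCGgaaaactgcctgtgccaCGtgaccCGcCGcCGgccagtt
These windows hold 7, 15, 28 and 20 CG, against a median of 18 over the 15381 genes tested that had a promoter sequence. The 247 genes with such a sequence that rose at least 2-fold had a median of 13 CG, and 12.6% of them lay on the X chromosome, against 3.86% of all. Outside the cancer-testis, ARMCX and BEX lists the share of these larger rises on the X was 4.87%. All 962 called rises with a sequence had a median of 18 CG, as over all genes, with 7.59% on the X. Called falls had a median of 21 CG, with 3.33% on the X. Methylation itself is not measured by these arrays.

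ARMCX2, of an X-linked family of armadillo repeat proteins, was at 3.80, 3.98 and 3.15 in untreated CP70 and at 10.43, 10.59 and 10.49 with the combination. All untreated arrays lay below the lower quartile of gene values and all combination arrays far above the median gene. The difference was 6.86 ± 0.18 (SE), or 116-fold (limma adjusted p = 1.83e-12). MAGEA6 went from 3.71, 3.72 and 3.63 to 10.54, 10.64 and 10.22, a rise of 6.78 ± 0.14 (110-fold). Its probe set can take up transcripts of close MAGEA relatives, so the signal cannot be given to MAGEA6 alone. DAZL, which binds messages for translation in germ cells, was at 3.19, 3.23 and 3.02 untreated and at 8.94, 8.83 and 8.54 with the combination, a rise of 5.62 ± 0.11 (49.2-fold).

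The rest of the 15 largest rises were again mostly germ cell genes. GCNA, a nuclear protein of germ cells, rose by 6.05 ± 0.12, SSX1, a cancer-testis antigen, by 6.02 ± 0.20, and GTSF1, a factor of the piRNA pathway, by 5.72 ± 0.13. MAEL, which guards germ cells against transposons, rose by 4.69 ± 0.12, from 3.27, 3.20 and 3.22 to 7.94, 8.04 and 7.77. MAGEA12 (6.21), MAGEA4 (5.21), MAGEA1 (5.04), MAGEB2 (4.76) and the transketolase relative TKTL1 (5.74) complete the germ cell genes among them. The probe sets of MAGEA12, MAGEA1 and SSX1 may, like that of MAGEA6, take up transcripts of close relatives. Their rises may therefore share signal, and the 2 probe sets of SSX1 gave 3.17 and 6.02. IFI27, GPX1 and HSPB1 are the others. The 15 were taken from called genes whose combination arrays all lie above the untreated ones, so that their lack of overlap is part of the choice. Over all genes tested, the combination arrays lay all above the untreated ones for 11.9% and all below for 11.7%.

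**Figure D2:**
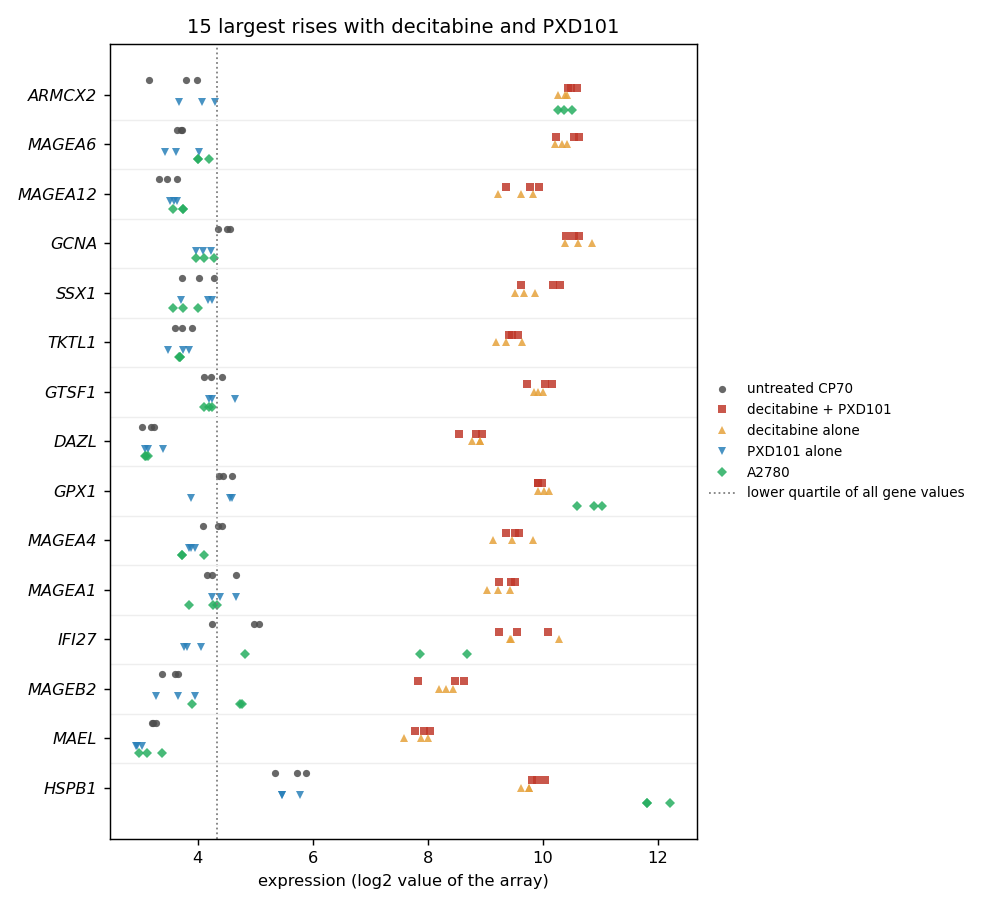
Log2 level in every array of the 5 groups for the 15 genes with the largest rise, 1 symbol per array, with the lower quartile of all gene values as a dotted line. The combination arrays (red squares) lie with the arrays of decitabine alone and apart from those of untreated CP70 and of PXD101 alone; ARMCX2, GPX1 and HSPB1 are also high in A2780.

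Cancer-testis antigens, X-linked for the most part and read in spermatogonia, rose as a group. Of 29 measured, 22 rose (background 6.17%) and 0 fell (limma; 0 with unadjusted p under 0.05, 0 by rank product), with a median difference of 1.94 against -0.001 over all genes. Their median level was 4.03, 4.05 and 4.08 in untreated CP70 and 6.39, 6.72 and 6.18 with the combination, so that the groups do not overlap. The count was 23 without untreated replicate 2, 20 with it as the only control and 20 with each set. In the promoter windows of 25 members the median was 8 CG, below the 18 of all genes. Close relatives on the list may share probe set signal. Without untreated replicate 2, 1 member was called lower, where all genes gave 9.81%. This list and all the others were chosen with earlier results of these data known, and their counts are a description.

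Many genes of germ cells and meiosis outside those families rose. Of 49 measured, 23 rose (46.9%) and 2 fell (4.08%), against 6.17% and 4.22% of all genes. The falls were thus near the share of all genes. The median difference was 0.486. Next to the genes already named, CTCFL, a testis relative of the insulator protein CTCF, rose by 3.86, HORMAD1, a protein of meiotic chromosome axes, by 3.81, and TDRD12, a tudor protein of the piRNA pathway, by 2.58. These 3 were picked for their size from the list, which also holds DPPA2 and DPPA4. SYCE2, a synaptonemal complex protein, fell by 0.85, and DMC1, the meiotic recombinase, fell by 0.47. Of the 23 rises, 19 were called with each set of controls, and of the 2 falls the SYCE2 call was.

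Some genes that rose are high in the parent line A2780. GPX1, a selenium-dependent glutathione peroxidase that removes hydrogen peroxide, was at 4.44, 4.36 and 4.60 in untreated CP70 and at 9.92, 9.99 and 9.91 with the combination. Its difference was 5.47 ± 0.16 (44.4-fold; limma adjusted p = 8.40e-12), and A2780 was at 10.59, 10.89 and 11.03. HSPB1, a small heat shock chaperone, was at 5.73, 5.34 and 5.89 untreated and at 9.82, 10.04 and 9.90 with the combination (4.27 ± 0.15), against 11.94 on average in A2780. In both genes the combination arrays lay above untreated CP70 and below A2780, whereas for ARMCX2 they (10.43 to 10.59) overlapped those of A2780 (10.27 to 10.51).

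In the X-linked ARMCX and BEX families, ARMCX2 included, 46.2% rose and 15.4% fell, against 6.17% and 4.22% of all genes. Of 13 measured, 6 rose and 2 fell, and the 6 rises were called with each set of controls. BEX1, a small adaptor protein of neural cells, rose by 2.78 ± 0.15 to a mean well short of A2780: 5.30, 5.10 and 5.66 untreated, 8.17, 8.2 and 8.02 with the combination, and 12.54 to 12.83 in A2780. ARMCX3 rose by 2.49 ± 0.24, BEX5 by 2.55 ± 0.15, BEX4 by 2.34 ± 0.22 and ARMCX1 by 1.42 ± 0.14. ARMCX4 fell by 0.65 ± 0.14 and ARMCX6 fell by 0.60 ± 0.11. Neither was called with untreated replicate 2 as the only control or over the mean of its probe sets. ARMCX5 had a difference of 0.23 ± 0.10 that did not pass (limma adjusted p = 0.168).

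Of 28 imprinted genes, read from 1 parental allele, 3 rose (10.7%) and 1 fell (3.57%), against 6.17% and 4.22% of all genes. Their median difference was -0.011. MEST, a hydrolase of the paternal allele, was at 4.23, 4.04 and 4.20 in untreated CP70, at 7.13, 7.12 and 6.48 with the combination (2.75 ± 0.15) and at 13.29 in A2780. PEG3, a zinc finger protein, rose by 2.12 ± 0.18 and PHLDA2, which limits placental growth, by 2.05 ± 0.21. Their probe sets ranged from 0.51 to 2.12 (1 of 2 called) and from -0.13 to 2.05 (2 of 3 called). ATP10A fell by 0.54 ± 0.11 and was not called with untreated replicate 2 as the only control or over the mean of its probe sets. Clustered protocadherins, which give neurons their surface identity, gave 2 rises and 2 falls of 27 (7.41% each way, against 6.17% and 4.22% of all genes), of which only the fall of PCDHB14 (-1.58 ± 0.16) was called with each set of controls.

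Interferon-stimulated genes, which limit viruses at several steps, rose as a group. The interferon-stimulated response element, a short motif found before many such genes, was searched as GAAA, any 2 bases and GAAA again on both strands of the same 250 bases. It occurred in 381 of all 15381 promoters (2.48%), in 22 of the 39 on the list of interferon-stimulated effectors (56.4%) and in 14 of the 23 called higher (60.9%). A match is a description of these letters, not evidence of binding. The stretches around the matches of IFI44 (chr1:78649756-78649788, plus strand) and IFI27 (chr14:94110613-94110665, plus strand) are shown as RefSeq has them in GRCh38.p14, matches in capitals, because both genes rose strongly.
IFI44: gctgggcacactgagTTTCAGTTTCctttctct
IFI27: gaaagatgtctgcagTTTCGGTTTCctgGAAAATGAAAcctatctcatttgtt
The match of IFI44 begins 18 bases before its start, and those of IFI27 begin 108 and 95 bases before theirs.

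IFI27, a mitochondrial interferon-induced protein, was at 4.98, 4.25 and 5.07 in untreated CP70 and at 9.24, 10.09 and 9.56 with the combination. The groups do not overlap, and the difference was 4.87 ± 0.66 (29.2-fold; limma adjusted p = 0.00027). Its SE includes the spread of A2780, whose arrays were at 4.83, 7.87 and 8.68. RSAD2 (viperin), which makes a chain-terminating nucleotide, went from 4.95, 5.64 and 5.17 to 8.01, 8.14 and 7.92, a rise of 2.77 ± 0.21. IFI44 rose by 2.35 ± 0.21, OAS1, a sensor of double-stranded RNA, by 2.17 ± 0.22, and MX1, a GTPase that traps viral capsids, by 2.00 ± 0.21. Of the 2 probe sets of IFI44 1 was called, and the other gave 0.15.

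Of 49 interferon-stimulated effectors, 29 rose (59.2%, against 6.17% of all genes) and 0 fell in limma. At unadjusted p under 0.05 in limma and by rank product 0 were lower. The median difference was 0.841. The median level was 6.85, 6.93 and 6.92 in untreated CP70 and 8.01, 8.36 and 8.35 with the combination. The count was 33 without untreated replicate 2, 15 with it as the only control and 14 with each set, so that about as many calls were lost as kept with replicate 2 alone. Without untreated replicate 2, 15.1% of all genes rose. Among sensors and signalling genes, 10 of 27 rose (37.0%, against 6.17% of all genes) and 0 fell (0 with unadjusted p under 0.05, 0 by rank product). RIGI, a sensor of RNA ends, rose by 2.06 ± 0.23 from 6.75, 6.48 and 6.91 to 8.31, 8.97 and 9.04. IFIH1 (MDA5), a sensor of long double-stranded RNA, rose by 1.58 ± 0.25, IRF7, the factor that amplifies interferon production, by 1.28 ± 0.16, and CGAS, a DNA sensor by 0.64 ± 0.09. The arrays of CGAS all stayed below the lower quartile, where its size is uncertain, 1 of its 3 probe sets was called, and over their mean it was not (limma adjusted p = 0.231).

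Of 30 genes of antigen presentation 5 rose (16.7%, against 6.17% of all genes) and 0 fell, with a median of 0.152. Lower with unadjusted p under 0.05 in limma was 1 gene, and 0 were by rank product. PSMB8, a subunit of the immunoproteasome, was at 4.25, 3.98 and 4.16 untreated and at 6.53, 6.69 and 6.58 with the combination, a rise of 2.48 ± 0.39. It was the member called with each set of controls. HLA-DMA and HLA-DMB, which load class II molecules, rose by 1.35 ± 0.22 and 0.77 ± 0.14. CD74, the invariant chain, rose by 0.54 ± 0.11, and NLRC5, a regulator of class I genes, by 1.18. These 4 were not called with untreated replicate 2 as the only control, and CD74 also not over the mean of its probe sets.

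Inflammatory mediators (chemokines, cytokines and targets of NF-kB) gave 13 rises of 34 and 0 falls (limma; 0 with unadjusted p under 0.05, 0 by rank product), with a median of 0.404, and 7 were called with each set of controls. The 13 rises were 38.2% of the list, against 6.17% of all genes. CXCL8, which attracts neutrophils, was at 4.48, 4.22 and 4.65 untreated and at 6.40, 7.58 and 7.05 with the combination, a rise of 2.56 ± 0.28. CCL5, which attracts T cells, went from 6.04, 5.57 and 5.56 to 7.45, 8.0 and 7.64 (1.97 ± 0.17). CXCL11, an interferon-induced chemokine, rose by 0.99 ± 0.13 and TNFAIP2, an NF-kB target, by 1.41 ± 0.16. For each of these, 1 of 2 probe sets was called, and the other gave 0.22 and 0.0005. The groups do not overlap for any of these 4, which were chosen as the called members with the smallest p. Over all genes the arrays lay fully apart for 11.9% higher and 11.7% lower.

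Of 10 metallothioneins, cysteine-rich proteins that bind zinc, copper and cadmium, 7 rose (70.0%, against 6.17% of all genes) and 0 fell in limma. At unadjusted p under 0.05 in limma and by rank product 0 were lower. The median difference was 1.89. MT1X was at 8.82, 9.46 and 8.83 in untreated CP70, 11.48, 11.65 and 11.05 with the combination and 10.07 on average with PXD101 alone. Untreated replicate 2 was the highest of the untreated arrays, and the groups do not overlap (2.36 ± 0.20). MT1E (1.89), MT1F (1.88) and MT1HL1 (1.93) rose likewise, and 6 of the 7 were called with each set of controls. The MT1 genes are near copies of each other, so that their probe sets may share signal.

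Genes that deacetylase inhibitors commonly raise were higher as well. Of 26, 14 rose and 0 fell (limma; 0 with unadjusted p under 0.05, 1 by rank product), with a median of 0.740, and 10 were called with each set of controls. With all controls the rises were 53.8% of the list, against 6.17% of all genes. Without untreated replicate 2, 16 rose and 3 fell, where all genes gave 15.1% and 9.81%. This list holds 3 of the metallothioneins that rose. CRIP1, a LIM-domain protein, was at 4.84, 5.12 and 4.81 untreated and at 9.29, 8.87 and 8.57 with the combination, a rise of 3.99 ± 0.19 (15.8-fold). CCN2, a matricellular growth factor, rose by 2.37 ± 0.22. The same list gave 11 rises with decitabine alone against the same untreated arrays (all genes 4.87%), and 4 rises and 6 falls with PXD101 alone (5.57% and 5.15%); since the 3 comparisons share those arrays, the counts are set side by side without a test.

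Of 30 histone genes 12 rose and 0 fell (limma; 0 with unadjusted p under 0.05, 0 by rank product), with a median of 0.353, and all 12 calls held with each set of controls. The linker histone H1-2 was at 10.21, 9.03 and 10.00 untreated and at 11.34, 11.73 and 11.39 with the combination (1.74 ± 0.23). H2BC11 rose by 1.58 ± 0.14, H4C8 by 1.66 ± 0.27 and H3C2 by 1.27 ± 0.18. For H1-2 and H4C8 untreated replicate 2 was the lowest array. Without that replicate, 13 histone genes rose and 1 fell, where all genes gave 15.1% and 9.81%. The core histone genes are near copies of each other, so signal may be shared between them. Most of their messages carry no poly(A) tail, and how far the amplification took up such messages was not tested. Of 19 S100 calcium-binding genes 9 rose (47.4%, against 6.17% of all genes), with a median of 0.585. Without untreated replicate 2, 11 rose and 1 fell, where all genes gave 15.1% and 9.81%. S100A3 went from 5.53, 6.02 and 5.94 to 9.42, 9.86 and 9.37 (3.72 ± 0.39), and S100A2 rose by 1.84 ± 0.27.

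Of 16 keratins and squamous markers 6 rose, and 4 of these calls held with each set of controls. The 6 rises were 37.5% of the list, against 6.17% of all genes. KRT19, a keratin of simple epithelia, was at 4.04, 4.77 and 4.30 in untreated CP70 and at 7.14, 7.49 and 7.29 with the combination (2.94 ± 0.21). KRT8 rose by 1.60 ± 0.16, its partner KRT18 by 1.05 ± 0.19, and SFN, the stratifin of epithelial cells, by 3.01 ± 0.18. CLDN7, a tight junction protein, went from 5.34, 5.43 and 5.83 to 7.83, 8.51 and 8.65 (2.79 ± 0.26), and EPCAM, an epithelial adhesion molecule, rose by 0.82 ± 0.18. The mesenchymal cadherin CDH2 fell by 0.60 ± 0.11. With untreated replicate 2 as the only control neither EPCAM nor CDH2 was called (limma adjusted p = 0.107 and 0.220). CDH1 stayed below the lower quartile (difference -0.04 ± 0.12). Of 31 junction genes 5 rose (16.1%) and 3 fell (9.68%), against 6.17% and 4.22% of all genes, with a median of -0.053. The falls were CDH2, TWIST1 and ESRP1, the latter 2 named because the count is small. Only the CLDN7 rise and the TWIST1 fall held with each set of controls.

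The extracellular matrix list moved both ways, with 12 rises (23.5%) and 10 falls (19.6%) of 51, against 6.17% and 4.22% of all genes. The median difference was -0.050. LOXL1, which crosslinks elastin, was at 3.68, 5.01 and 4.35 untreated and at 7.17, 6.89 and 7.30 with the combination (2.77 ± 0.28). The plasminogen activators PLAU and PLAT rose by 1.76 ± 0.16 and 1.91 ± 0.19. MMP16, a membrane-anchored protease, fell by 1.37, from 9.05, 8.56 and 8.85 to 7.4, 7.24 and 7.71. Of the rises 9, and of the falls 4, were called with each set of controls. Among 16 markers of fibroblasts and endothelium 3 rose (18.75%, against 6.17% of all genes). They were the smooth muscle genes ACTA2 (1.55 ± 0.24) and TAGLN (1.68 ± 0.29) and the surface protein THY1 (0.53 ± 0.16). PECAM1, CDH5 and FAP did not pass the test. Of these 3 rises only that of ACTA2 was called with untreated replicate 2 as the only control (TAGLN, limma adjusted p = 0.133; THY1, 0.847). THY1 also lost its call without any 1 of the combination arrays, without untreated replicate 1 or 3, and under both other scalings. The log2 of the summed levels of that list was 11.58, 12.11 and 11.58 untreated and 12.82, 12.58 and 12.47 with the combination.

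The direct targets of the drugs were measured as well. DNMT1, the maintenance methyltransferase that decitabine traps as a protein, was at 9.53, 9.99 and 9.43 untreated and at 9.78, 9.81 and 9.87 with the combination, a difference of 0.17 ± 0.13 (limma adjusted p = 0.470). The de novo enzymes DNMT3A (0.79 ± 0.22) and DNMT3B (1.29 ± 0.35) were called higher. DNMT3B was at 6.74, 8.69 and 6.92 untreated and at 8.94, 8.69 and 8.59 with the combination, so that untreated replicate 2 lay among the combination arrays. With replicate 2 as the only control the differences were 0.10 for DNMT3A and 0.05 for DNMT3B (limma adjusted p = 0.869 and 0.958), and both calls were also lost without any 1 of the other 5 arrays. TET1, which oxidises methylcytosine, fell by 0.99 ± 0.17, from 8.19, 8.66 and 8.36 to 7.33, 7.23 and 7.67, and was called with each set of controls.

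Among 18 histone deacetylases 1 rose (5.56%) and 3 fell (16.7%), against 6.17% and 4.22% of all genes. HDAC1, HDAC2 and HDAC3, the nuclear class I enzymes, differed by 0.10 ± 0.14, -0.13 ± 0.08 and -0.23 ± 0.12 (limma adjusted p = 0.747, 0.338 and 0.277). HDAC4, a class IIa enzyme, was at 6.61 in each untreated array and at 5.79, 5.56 and 5.66 with the combination, a fall of 0.94 with SE 0.14. Its 3 probe sets ranged from -0.94 to 0.01, with 2 called. HDAC9 fell by 0.65 ± 0.16 and SIRT5, a desuccinylase of mitochondria, by 0.34 ± 0.08, while SIRT7 rose by 0.58 ± 0.13. With untreated replicate 2 as the only control HDAC9 (limma adjusted p = 0.154) and SIRT7 (a difference of 0.32; 0.347) were not called. HDAC9 also lost its call over the mean of its probe sets and without combination replicate 1 or 2 or untreated replicate 1 or 3, SIRT5 without combination replicate 1 or 2 or untreated replicate 1, and SIRT7 without combination replicate 1 or untreated replicate 1. Of 21 genes of DNA methylation and demethylation, 6 rose (28.6%) and 3 fell (14.3%), against 6.17% and 4.22% of all genes. Only the GADD45B rise (0.92 ± 0.19) and the TET1 fall were called with each set of controls.

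Of 31 genes of the p53 response 6 rose (19.4%, against 6.17% of all genes) and 0 fell (limma, with 1 lower at unadjusted p under 0.05 and 0 by rank product). Without untreated replicate 2, 8 rose and 3 fell, where all genes gave 15.1% and 9.81%. CDKN1A (p21), an inhibitor of cell cycle kinases, was at 9.91, 9.10 and 9.95 untreated and at 10.33, 10.67 and 10.74 with the combination (0.93 ± 0.21), with untreated replicate 2 the lowest array, and lost its call without combination replicate 2 or 3. TIGAR rose by 0.69 ± 0.11 and the kinase PLK3 by 0.66 ± 0.11. These 3 of the 6 rises were called with each set of controls. The 3 probe sets of PLK3 ranged from -0.22 to 0.66, and over their mean it was not called (limma adjusted p = 0.291). Of 39 genes of the BCL2 family, caspases and death receptors, 6 rose (15.4%) and 1 fell (2.56%), against 6.17% and 4.22% of all genes. TNFSF10 (TRAIL), a death ligand, rose by 1.28 ± 0.23, BIK by 0.72 ± 0.16 and TNFRSF10A, a TRAIL receptor, by 0.55 ± 0.14. BCL2A1 rose by 0.50 ± 0.13, and BAK1, which permeabilises mitochondria, by 0.39 ± 0.08. BAX (0.42) was the sixth, and HRK fell by 1.71; both are named because the count is small. TNFSF10 and BIK were the 2 calls that held with each set of controls. TNFRSF10A also lost its call without combination replicate 2 or 3 or untreated replicate 1 or 3, and BCL2A1 without combination replicate 1 or 2 or untreated replicate 1 or 3.

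The genes of DNA replication gave opposite pictures against different untreated arrays. Their median level was 8.68, 9.91 and 8.72 in untreated CP70, 9.89, 9.71 and 9.57 with the combination, 9.52 to 9.69 with decitabine alone and 9.94 to 10.07 with PXD101 alone. Untreated replicate 2 thus lay above every combination array and replicates 1 and 3 below them. MCM4, a subunit of the replicative helicase, was at 8.4, 9.99 and 8.56 untreated and at 10.23, 10.01 and 9.79 with the combination. Its difference was 1.03 ± 0.30 with all controls (limma adjusted p = 0.0437), 1.53 without replicate 2 and 0.02 with replicate 2 alone. The call was lost without any 1 of the 5 arrays other than untreated replicate 2, and under median centring. It was also lost over the mean of its probe sets and with the replicate number as a block.

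Of 37 replication genes 3 rose (MCM4, GINS4 and RRM2; 8.11%, against 6.17% of all genes) and 0 fell (limma; 0 lower with unadjusted p under 0.05, 0 by rank product). Without untreated replicate 2, 31 rose, where all genes gave 15.1%, and with it as the only control the median difference was -0.228. GINS4 and RRM2 lost their calls without combination replicate 1 or 2 or untreated replicate 1 or 3, and GINS4 also over the mean of its probe sets. For cell cycle and mitosis 3 of 49 rose and 3 fell (6.12% each way, near the share of all genes). Without replicate 2 it was 18 and 3, where all genes gave 15.1% and 9.81%, and with replicate 2 alone 1 fell. CCND2, cyclin D2, fell by 0.73 ± 0.09, from 12.05, 11.89 and 11.97 to 11.31, 11.29 and 11.11, with each set of controls. CDKN1B (-0.69 ± 0.17) and CDKN2A (-0.40 ± 0.09) fell too, with differences of -0.51 and -0.22 against replicate 2 alone. Both calls were lost without combination replicate 2 or untreated replicate 1 or 3, and that of CDKN1B also without combination replicate 1. CCND3 rose by 0.92 ± 0.24, but by 0.18 with replicate 2 alone, where it did not pass. Its call was also lost over the mean of its probe sets and without combination replicate 1 or 2 or untreated replicate 1 or 3. Of 38 genes of excision, crosslink and recombination repair, ERCC1 rose (0.66 ± 0.13) and ERCC4 fell (-0.35 ± 0.10), 2.63% each way and below the shares of all genes. Without replicate 2, 17 rose and 3 fell, and with it alone 1 fell; neither ERCC1 (limma adjusted p = 0.0728) nor ERCC4 (0.395) was then called. ERCC4 also lost its call without combination replicate 1 or 3 or untreated replicate 1 or 3, and ERCC1 over the mean of its probe sets.

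Mismatch repair, which corrects replication errors, had 1 call among 6 genes, PMS1. Its probe set was at 9.68, 9.28 and 9.62 untreated and at 8.72, 8.54 and 8.73 with the combination (-0.87 ± 0.11). Its 5 probe sets disagreed, from -0.87 to 0.54, with 1 called each way. Of 22 transporters of platinum and other drugs, 0 rose (limma, with 2 at unadjusted p under 0.05 and 0 by rank product) and 2 fell (9.09%, against 4.22% of all genes). The 2 were the efflux pump ABCB1 (-0.40 ± 0.11), whose arrays all lay below 4.34, and SLC47A1 (-0.42 ± 0.13). Neither held with each set of controls: ABCB1 was at -0.16 with untreated replicate 2 alone (limma adjusted p = 0.655) and SLC47A1 at -0.28 without it (0.0884). Without any 1 of the combination arrays both calls were lost, as they were without untreated replicate 3 and, for ABCB1, untreated replicate 1, and with the replicate number as a block. Among 34 genes of glutathione, thioredoxin and NRF2, 4 rose (11.8%) and 2 fell (5.88%), against 6.17% and 4.22% of all genes. Next to GPX1, the secreted peroxidase GPX3 rose by 1.26 ± 0.15 and the thioredoxin reductase TXNRD1 by 0.64 ± 0.13, while the transferase GSTA4 fell by 0.54 ± 0.10. MGST2 (0.53) rose and MGST1 (-0.38) fell too, and 3 of the rises and 1 of the falls were called with each set of controls.

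The ATF4 branch of the integrated stress response, which turns on amino acid synthesis and transport, again parted the untreated arrays. The median level of its 32 genes was 10.94, 9.76 and 10.96 in untreated CP70, and 9.52, 10.29 and 10.51 with the combination. All controls together gave 0 rises (limma, with 1 at unadjusted p under 0.05 and 1 by rank product) and 3 falls (9.38%, against 4.22% of all genes). The median was -0.481. Without untreated replicate 2, 15 fell, where all genes gave 9.81%. With it as the only control the median difference was 0.352. PHGDH, the entry enzyme of serine synthesis, was at 10.93, 10.16 and 10.97 untreated and at 9.29, 9.37 and 9.63 with the combination (-1.25 ± 0.17), and CBS, of transsulfuration, fell by 1.12 with SE 0.16. These 2 calls held with each set of controls, whereas ALDH1L2, a mitochondrial folate enzyme (-2.08 ± 0.49), did not, nor without combination replicate 1 or 2 or untreated replicate 1 or 3.

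Of 17 aminoacyl-tRNA synthetases, 0 rose (limma, with 2 at unadjusted p under 0.05 and 0 by rank product) and WARS1 fell (-1.25 ± 0.26). This is 5.88%, against 4.22% of all genes. Without untreated replicate 2, 8 fell, where all genes gave 9.81%, and WARS1 was not called with replicate 2 alone. For chaperones of the endoplasmic reticulum 1 of 26 rose, DERL1 (0.52), and 4 fell, SEL1L (-0.99 ± 0.26), HYOU1 (-0.60 ± 0.17), HSP90B1 (-0.44 ± 0.11) and PDIA6 (-0.28 ± 0.08), and none of the 5 was called with replicate 2 alone. SEL1L, HYOU1 and PDIA6 also lost their calls without any 1 of the other 5 arrays, and HSP90B1 without combination replicate 2 or untreated replicate 1 or 3. SEL1L and HSP90B1 lost theirs over the mean of their probe sets too. The shares of this list were 3.85% up and 15.4% down, against 6.17% and 4.22% of all genes. Of 22 sterol and fatty acid genes, SREBF2 (-0.72 ± 0.14) and INSIG1 (-1.0 ± 0.20) fell (9.09%, against 4.22% of all genes), also not with replicate 2 alone. Of 19 heat shock proteins 5 rose (26.3%, against 6.17% of all genes) and 0 fell in limma. At unadjusted p under 0.05 in limma and by rank product 0 were lower. Next to HSPB1, HSPB8 rose by 1.05 ± 0.16, HSPA2 by 1.60 ± 0.29, CRYAB, a lens chaperone, by 0.82 ± 0.18, and BAG3 by 0.41. The HSPB1 and HSPB8 calls held with each set, and CRYAB also lost its call without combination replicate 2 or untreated replicate 1.

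The falls were smaller than the rises, and most of the largest rested on untreated replicates 1 and 3. GJA5, a gap junction protein, was at 7.16, 4.31 and 6.78 untreated and at 4.08, 3.74 and 3.85 with the combination. Its difference was -2.19 ± 0.48 (limma adjusted p = 0.00945) with all controls, -3.08 without replicate 2 and -0.42 with replicate 2 alone (limma adjusted p = 0.268). The transporter SLC16A4 (-2.13), ALDH1L2 (-2.08), the lectins MBL2 (-1.96) and COLEC12 (-1.94), NIBAN1 (-1.92), a stress-induced protein, and the testis chaperone CLGN (-1.77) had the same shape, with untreated replicate 2 between the other untreated arrays and the combination. None of these 7 was called with replicate 2 as the only control. NIBAN1 also lost its call without any 1 of the other 5 arrays and over the mean of its probe sets, and GJA5 and COLEC12 without untreated replicate 3.

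**Figure D3:**
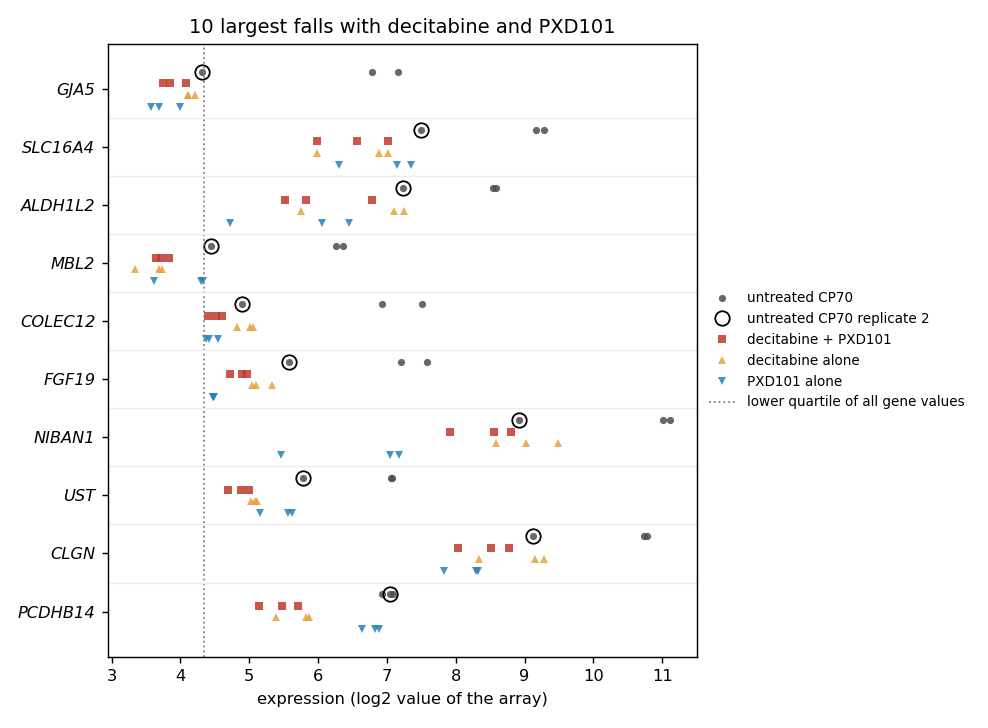
Log2 level in every CP70 array for the 10 genes with the largest fall, 1 symbol per array, with untreated replicate 2 ringed and the lower quartile of all gene values dotted. In 9 of the 10 the ringed array lies between the other untreated arrays and the combination arrays; in PCDHB14 it lies among the untreated arrays.

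FGF19, UST and PCDHB14 were the 3 of the 10 largest falls that were called with each set of controls. FGF19, a hormone-like growth factor, was at 7.59, 5.58 and 7.20 untreated and at 4.72, 4.97 and 4.89 with the combination (-1.93 ± 0.34). UST, a sulfotransferase of chondroitin and dermatan, went from 7.08, 5.78 and 7.06 to 4.89, 4.70 and 4.99 (-1.78 ± 0.26). PCDHB14 was at 6.93, 7.05 and 7.09 untreated and at 5.14, 5.48 and 5.71 with the combination, and its difference was -1.58 against all controls and -1.61 against replicate 2 alone. Below these, and picked after their values were seen because they were called with each set, came DMKN (-1.43), C1orf54 (-1.42), SERPINF1, an inhibitor of vessel growth (-1.42), MMP16 (-1.37) and the arginine transporter SLC7A2 (-1.35). For SLC7A2 1 of 3 probe sets was called, with the weakest at -0.07, and for MMP16 3 of 5, with the weakest at -0.135.

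The next question was what PXD101 added to decitabine. The combination differed from decitabine alone in 2 of 19775 genes (0.0101%), both higher. The intervals bound the rest: for 19633 genes (99.3%) the 95% interval of the difference lay within 2-fold in either direction. Before adjustment, at p under 0.05, 384 genes were higher (1.94%) and 545 lower (2.76%), and rank product called 17 higher and 1 lower. Of the cancer-testis antigens 28 of 29, of the interferon-stimulated effectors 44 of 49 and of the metallothioneins 10 of 10 had an interval within 2-fold, with medians of 0.060, -0.067 and 0.044. The ATF4 list was known less well, with 15 of 32 (46.9%) so bounded. For ARMCX2 the difference was 0.15, with an interval of -0.25 to 0.54, and for DAZL -0.09, with -0.33 to 0.15.

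The 2 genes were DPPA2 and DPPA4, paired SAP-domain proteins of pluripotent and early germ cells that act together on chromatin. Their starts lie 21029 bases apart on the minus strand of chromosome 3. The 250 bases upstream of each are shown because the pair moved together (RefSeq, GRCh38.p14, 5' to 3' on the gene's strand, CG in capitals; chr3:109316518-109316767 for DPPA2 and chr3:109337547-109337796 for DPPA4).
DPPA2: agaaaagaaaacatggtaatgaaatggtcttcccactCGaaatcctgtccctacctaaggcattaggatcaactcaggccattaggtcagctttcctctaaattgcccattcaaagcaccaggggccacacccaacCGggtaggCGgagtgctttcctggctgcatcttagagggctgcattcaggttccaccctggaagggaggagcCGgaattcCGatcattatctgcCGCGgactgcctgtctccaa
DPPA4: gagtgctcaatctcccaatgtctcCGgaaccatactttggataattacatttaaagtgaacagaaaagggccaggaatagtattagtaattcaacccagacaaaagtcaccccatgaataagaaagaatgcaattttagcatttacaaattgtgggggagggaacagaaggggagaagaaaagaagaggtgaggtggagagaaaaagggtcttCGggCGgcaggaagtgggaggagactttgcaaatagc
They hold 7 and 3 CG, fewer than the median of 18. Both contain CCGGAA, the core of ETS factor sites, searched on both strands, as do 19.6% of all promoter windows.

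DPPA4 was at 3.19, 3.42 and 3.25 in untreated CP70, 3.15, 3.24 and 3.22 with PXD101 alone, 4.87, 4.60 and 4.45 with decitabine alone and 5.81, 5.78 and 5.86 with the combination. The 4 groups of CP70 fall into 3 levels that do not overlap, with PXD101 alone at the untreated level. The combination exceeded decitabine alone by 1.18 ± 0.11 (95% interval 0.95 to 1.41; limma adjusted p = 0.0004285). DPPA2 was at 4.44, 4.61 and 4.56 untreated, 4.51, 4.43 and 4.57 with PXD101, 5.89, 5.95 and 5.88 with decitabine and 6.76, 6.98 and 6.56 with both. It shows the same 3 levels, and the combination exceeded decitabine by 0.86 ± 0.11 (0.62 to 1.10; limma adjusted p = 0.01701).

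**Figure D4:**
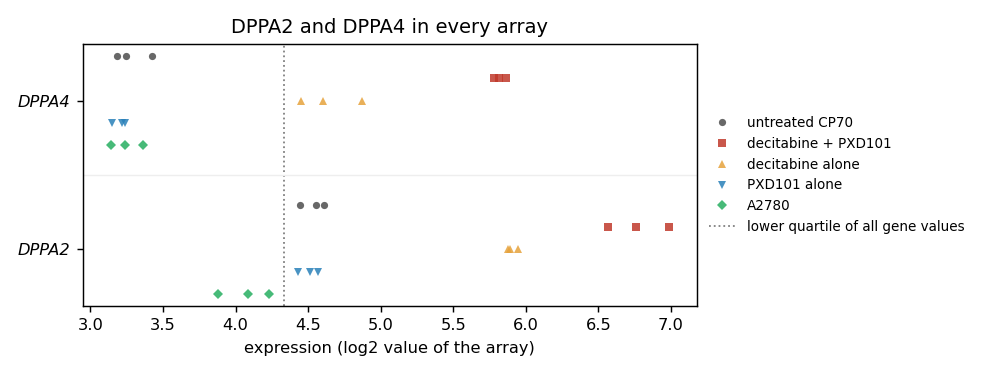
Log2 level of DPPA4 and DPPA2 in every array of the 5 groups, 1 symbol per array, with the lower quartile of all gene values dotted. The combination arrays lie above those of decitabine alone for both genes (5.78 to 5.86 against 4.45 to 4.87 for DPPA4; 6.56 to 6.98 against 5.88 to 5.95 for DPPA2), and the other groups lie lower.

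These calls depended on how the spread was estimated. Neither gene was called when only the 6 arrays compared were fitted (limma adjusted p = 0.078 for DPPA4 and 0.294 for DPPA2). DPPA2 also lost its call without combination replicate 1 (0.0877) or 2 (0.132) and without decitabine replicate 1 (0.0979), 2 (0.106) or 3 (0.0943), with differences of 0.76 to 0.97 over the arrays left out. DPPA4 kept its call without any 1 of the 6 arrays. It has 3 probe sets, and the mean of the 3 gave 0.42 (limma adjusted p = 0.137). Rank product called both, and its other 15 rises included the muscle genes TRIM55 (1.09) and ANKRD1 (0.79), the antigen SSX3 (0.71) and GPX3 (0.68); these 4 are named after their values were seen.

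Against PXD101 alone, the combination asks what decitabine added, with the unequal PXD101 exposure in mind. It differed in 1965 genes (9.94%), 1169 higher (5.91%) and 796 lower (4.03%), 405 and 68 of them by at least 2-fold. This comparison uses no untreated array. The largest rises were those of MAGEA6 (6.77 ± 0.14), ARMCX2 (6.48 ± 0.18), GCNA (6.42 ± 0.12), MAGEA12 (6.11 ± 0.16) and SSX1 (5.98 ± 0.20). Of cancer-testis antigens 22 of 29 were higher, of interferon-stimulated effectors 26 of 49, of histone genes 14 of 30 and of the ATF4 stress genes 8 of 32 (limma in each case).

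The largest falls against PXD101 alone were C1orf54 (-1.61 ± 0.15), the adhesion protein MPZL2 (-1.57 ± 0.33), the carbonic anhydrase CA14 (-1.5 ± 0.17), TET1 (-1.48 ± 0.17) and SOWAHA (-1.47 ± 0.27). MPZL2 was at 6.89, 6.55 and 7.27 with the combination, 8.0, 8.83 and 8.60 with PXD101 and 6.61, 7.99 and 6.83 untreated. Untreated replicate 2 again lay near the PXD101 arrays, and the combination lay near untreated replicates 1 and 3 for this gene.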

How the data were processed

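RNA of the 15 cultures was amplified and hybridised to Affymetrix arrays of 54675 probe sets, 1 array per culture. The authors deposited log2 values in 1 table, made with R 2.10.1 and affy per the submitters' processing notes; how background, normalization and summarization were handled is not given in the sources used here, and arrays carry no read depth, so that their number limits the precision. Probe sets were named through the platform annotation (41097 with 1 symbol, 1801 with several, 11777 with none), and the probe set of highest mean stood for each of 19775 genes.

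The 15 arrays were fitted with group means in limma 3.58.1 (R 4.3.3; lmFit and eBayes), with Benjamini-Hochberg adjustment over all genes and calls at an adjusted p under 0.05; SE is the moderated standard error. The rank product, which the design text names, used 100 permutations and calls under 5% false positives. Tables and plots were made with Python 3.11.15, pandas 2.3.3 and matplotlib 3.10.9. Scripts were tested on simulated data.

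Genes were named by rule: among called genes whose 3 combination arrays all lie beyond the 3 untreated ones, the 15 largest rises and 10 largest falls; up to 4 called members of each of 34 lists by smallest p; DNMT1, DNMT3A, DNMT3B, HDAC1, HDAC2 and HDAC3; every ARMCX gene; and the 5 largest changes each way against each single drug. Other names are said to be chosen later or are single members of short counts. Members and lists were chosen with earlier results of these data known. Of 1000 listed genes 892 were measured. Same-numbered combination and untreated arrays deviated together at r = -0.372, -0.213 and 0.326, so the numbers were not used as pairs.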

Additional observations from a re-analysis of the deposited data

How the results depend on the processing

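Against untreated CP70, where limma called 2055 genes (1221 higher, 834 lower), fitting only the 6 arrays compared gave 834 (582, 252), every probe set 3443 (1911, 1532), array weights 8125 (4415, 3710), a 2-fold minimum 418 (338, 80), rank product 446 (299, 147) and untreated replicates 1 and 3 left out together 865 (572, 293). Median centring gave 1714 lower. Leaving out 1 array gave 1038 to 4917 calls, 665 to 2978 higher and 367 to 1939 lower, highest without untreated replicate 2. Against decitabine, where 2 genes were called, the count was 0 with only the arrays compared and 0 over genes above the median level, 5 with array weights, 1 with a 2-fold minimum, 18 by rank product and 1 to 2 with 1 array left out (1 without combination replicate 1 or 2 or decitabine replicate 2 or 3). Against PXD101 (1965) it was 3174 with only the arrays compared, 3500 over every probe set, 4840 with array weights, 473 with a 2-fold minimum, 821 by rank product and 938 to 1666 with 1 array left out, lowest without combination replicate 2. The cause of these shifts was not tested, except that every probe set tests more features and that leaving out arrays uses fewer samples. Of single genes, SIRT5 (0.0331) and PMS1 (0.0531) changed sign with the mean of all their probe sets, and neither was then called. Fitting only the arrays compared ended the call of 47 results on named genes and changed no call of 102. With the replicate number as a block, 1709 genes were called against untreated CP70 (1053 higher, 656 lower), 2 against decitabine and 1650 against PXD101. The numbers do not pair the arrays. DNMT3A was among 8 named genes that lost their call under the block (limma adjusted p = 0.0523). With 3 arrays a group and values near the array's floor, changes of dim genes are limited by signal over background.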
